A study of Mus musculus with 12 samples.

Results

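Brush border peptidases are the enzymes that absorptive cells hold on their apical membrane to cut peptides outside the cell. The 9 genes described here were chosen by name for that role: *Dpp4*, *Mep1a*, *Mep1b*, *Anpep*, *Enpep*, *Ace*, *Mme*, *Ggt1* and *Xpnpep2*. The rule uses no measured value, but the genes were named with earlier results of these data known. All 9 were among the 15687 genes of the deposited table. Expression was measured by RNA sequencing of 12 subcutaneous tumors that grew from the mouse lung cancer line mTC11 in male C57BL6/J mice injected at 8 weeks of age. The CTL group (6 tumors) carried a control shRNA, and the *Filip1l*-knockdown group (6 tumors) carried an shRNA against *Filip1l*. Both groups were transduced with lentivirus, selected with puromycin as mixed clones, injected in Matrigel and harvested on day 24. The methods name 2 *Filip1l* target sequences without saying which one these tumors carried. The groups grew from separately transduced cells, so other differences between those cells cannot be told apart from an effect of the knockdown. The host mice had an intact immune system, and whole tumors were sequenced, so host stroma and immune cells contributed RNA. In such bulk samples fewer cells of a type and less RNA per cell cannot be told apart.

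On the microvilli of small intestine and kidney proximal tubule, these enzymes shorten peptides until transporters can take up di- and tripeptides and free amino acids. *Anpep*, *Enpep* and *Xpnpep2* encode aminopeptidases, *Dpp4* a dipeptidyl peptidase, *Mep1a*, *Mep1b* and *Mme* endopeptidases, *Ace* a carboxypeptidase that releases dipeptides, and *Ggt1* an enzyme that breaks down glutathione. Many of them also inactivate or activate circulating peptides such as incretins, angiotensins and natriuretic peptides, and several are found on immune cells, endothelium or fibroblasts.

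The genes did not move as a group. Transcripts of *Dpp4*, *Mep1a*, *Mep1b*, *Mme* and *Xpnpep2* were higher in knockdown tumors, with log2 fold changes from 2.33 to 5.24. *Anpep*, *Enpep*, *Ggt1* and *Ace* did not reach the threshold, with values from -0.49 to 0.12. A gene was called at an adjusted p under 0.05 (limma, Benjamini-Hochberg over all 15687 genes) and an absolute log2 fold change over 1, so 5 of the 9 genes were called. Of all genes, 10.2% were called in either direction. All 5 calls were higher and 0 were lower by limma, edgeR or DESeq2, with 1 of the 9 genes, *Ace*, lower at an unadjusted p under 0.05, while 6.2% of all genes were called higher and 3.97% lower. The median log2 fold change was 2.33 over the 9 genes, the value of *Xpnpep2*, and 0.01 over all genes. *Mep1a*, *Mep1b* and *Xpnpep2* had CTL means below the lowest mean of any listed gene (9.28 normalized counts). They were thus listed only through their knockdown values. The count of calls and the median are therefore no fair measure against all genes. The 9 genes lie on 8 chromosomes. None of them lies on chromosome 8, 14 or 19, where the median gene was shifted by -0.20, 0.38 and -0.35 in knockdown tumors.

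To show the DNA in front of genes that did and did not change, sequence upstream of the start was taken for 5 of them from RefSeq on GRCm38.p6, where 8 of the 9 genes were listed. Capitals mark CpG dinucleotides, the sites of DNA methylation. *Dpp4* (chr2:62412232-62412431, - strand), *Mep1a* (chr17:43502813-43503012, - strand) and *Xpnpep2* (chrX:48108525-48108724, + strand) were higher in knockdown tumors. *Anpep* (chr7:79848211-79848410, - strand) and *Enpep* (chr3:129332750-129332949, - strand) were not called. Each stretch is 200 bases, written 5′ to 3′ toward the gene, and ends at the RefSeq start except for *Mep1a*, where the last 39 bases before that start were left out because GENCODE annotates them as exon.
Dpp4: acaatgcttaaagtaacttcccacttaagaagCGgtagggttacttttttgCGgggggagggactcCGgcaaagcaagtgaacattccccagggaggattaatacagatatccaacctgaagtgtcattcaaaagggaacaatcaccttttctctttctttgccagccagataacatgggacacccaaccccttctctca
Mep1a: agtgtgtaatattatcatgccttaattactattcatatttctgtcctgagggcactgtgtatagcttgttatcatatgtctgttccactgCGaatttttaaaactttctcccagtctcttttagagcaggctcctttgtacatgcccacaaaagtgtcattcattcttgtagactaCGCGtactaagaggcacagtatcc
Xpnpep2: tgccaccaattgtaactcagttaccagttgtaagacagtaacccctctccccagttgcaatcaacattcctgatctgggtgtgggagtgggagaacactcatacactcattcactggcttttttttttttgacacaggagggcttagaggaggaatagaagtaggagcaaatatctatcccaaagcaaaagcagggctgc
Anpep: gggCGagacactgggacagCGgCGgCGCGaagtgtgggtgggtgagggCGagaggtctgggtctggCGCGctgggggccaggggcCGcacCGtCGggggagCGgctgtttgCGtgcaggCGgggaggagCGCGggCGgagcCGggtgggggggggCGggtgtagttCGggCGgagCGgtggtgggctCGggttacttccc
Enpep: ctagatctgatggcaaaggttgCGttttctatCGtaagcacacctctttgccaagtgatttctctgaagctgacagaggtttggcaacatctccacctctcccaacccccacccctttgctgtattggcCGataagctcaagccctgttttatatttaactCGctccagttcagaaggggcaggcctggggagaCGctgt

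The stretches of *Dpp4* and *Mep1a* held 3 CpG dinucleotides each, that of *Xpnpep2* held 0, that of *Enpep* 5 and that of *Anpep* 23. The *Anpep* stretch is inside the GENCODE gene, which extends further upstream, so other annotated starts of *Anpep* were not shown. In the full windows of 300 bases around the start (250 before and 50 after), the counts were 4 for *Dpp4*, 6 for *Mep1a*, 0 for *Xpnpep2*, 7 for *Enpep* and 28 for *Anpep*. The median over all 32851 windows was 7. *Mme*, with 3 listed starts, had windows with 4, 29 and 32 CpG dinucleotides, so CpG-poor windows were not shared by all starts of the genes that were higher. The 2 windows of *Ace* held 29 and 2, and the 4 windows of *Ggt1* held between 2 and 10. GC content ranged from 42.3% for *Mep1a* to 73.0% for a start of *Mme*, with a median of 52.7% over all windows.

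Letters typical of sites for enterocyte transcription factors were counted in the same 14 windows on both strands. The letters TTTATG, typical of CDX factors, were found in the *Mep1a* window only, and in 11.9% of all windows. CAAAGT, typical of HNF4 factors, was found once each in the windows of *Mep1a*, 1 of the 3 starts of *Mme*, 1 of the 4 starts of *Ggt1* and both starts of *Ace*, and in 14.4% of all windows. The matches of *Mep1a* lie outside the stretch printed above, beginning at position -29 for CAAAGT and at position 14 for TTTATG, counted from 1 at the RefSeq start. The *Dpp4*, *Xpnpep2*, *Anpep* and *Enpep* windows held none of these letters. A match of 6 letters is a description of the sequence and does not show binding.

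Values are normalized counts, that is, reads per gene divided by the size factor of the tumor, and they compare between tumors for 1 gene. Fold changes are on the scale of log2 of the normalized count plus 1, given with the standard error (SE) of the limma fit. The exact two-sided permutation test over all 924 arrangements of the labels can give no p below 0.00216. The totals on listed genes came to between 17834745 and 29502069 reads in CTL tumors and between 25460564 and 32419578 in knockdown tumors. The targeted gene, *Filip1l*, was only slightly lower, with 1983 to 2542 normalized counts in CTL tumors and 1670 to 2184 in knockdown tumors, ranges that overlap (log2 fold change -0.26, SE 0.07, limma adjusted p = 0.00998). That change is below the size needed for a call, and it is measured in RNA of whole tumors, host cells included. The paper reports lower FILIP1L protein by immunoblot of the cells and by staining of tumors.

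*Dpp4* (ENSMUSG00000035000) encodes dipeptidyl peptidase 4, also known as CD26, which removes dipeptides from the N terminus of peptides with proline or alanine in second place. CTL tumors had 80.5 to 176.9 normalized counts of *Dpp4* (median 120.1), and knockdown tumors had 629 to 994 (median 869). All 6 knockdown tumors were above every CTL tumor. The means were 128 ± 36.9 and 834 ± 159 (SD, n = 6 each), with a ratio of 6.50. On the log2 scale *Dpp4* rose by 2.72 (SE 0.19, limma adjusted p = 1.38e-07, exact permutation p = 0.00216, the smallest possible). It stayed between 2.59 and 2.82 when each tumor was left out in turn. The paper also reports *Dpp4* as increased in knockdown mTC11 tumors by qRT-PCR. In the annotation, 232 bases of its exons (3.67%) overlap *Gm13561* on the opposite strand, a gene not listed in the table. The counting is not stated to use strand, so reads of the 2 genes cannot be told apart there.

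The meprins are zinc endopeptidases of the astacin family. Meprin alpha, from *Mep1a*, and meprin beta, from *Mep1b*, assemble into dimers, in which the beta subunit anchors the complex in the membrane. *Mep1a* (ENSMUSG00000023914) had 2.99 to 9.0 normalized counts in CTL tumors (median 6.51) and 52.4 to 139.8 in knockdown tumors (median 100.6). The groups did not overlap, and the mean rose from 6.57 ± 2.23 to 95.8 ± 30.9 (SD, n = 6 each). The log2 fold change of *Mep1a* was 3.67 (SE 0.29, limma adjusted p = 4.81e-07, exact permutation p = 0.00216).

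*Mep1b* (ENSMUSG00000024313) was at 0 reads in 4 of the 6 CTL tumors, and the other 2 had 0.88 and 1.49 normalized counts, 1 read each. The knockdown tumors had 26.4 to 81.4 normalized counts of *Mep1b* (median 49.9), so the transcript was present in 6 of 6. In all, 2 reads in CTL tumors stood against 318 reads in knockdown tumors, a ratio of the rates of 150 with an exact 95% interval of 41.3 to 1246. The reads have no molecular identifiers, so this interval covers nothing but counting error. The fitted log2 fold change of *Mep1b* was 5.24 (SE 0.39, limma adjusted p = 2.63e-07, exact permutation p = 0.00216). With so few CTL reads it depends on the pseudocount and ranged from 2.75 to 7.12 over 11 other settings, all of which kept the call. The paper also reports *Mep1b* as increased in knockdown mTC11 tumors by qRT-PCR.

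*Mme* encodes neprilysin, also known as CD10, a membrane endopeptidase that breaks down natriuretic peptides, enkephalins and angiotensins. *Mme* (ENSMUSG00000027820) had 36.0 to 109.8 normalized counts in CTL tumors (median 52.8) and 222 to 550 in knockdown tumors (median 343). The lowest knockdown tumor had more than the highest CTL tumor, which was replicate 2. The means were 59.0 ± 25.9 and 350 ± 109 (SD, n = 6 each), with a ratio of 5.92. On the log2 scale *Mme* rose by 2.58 (SE 0.25, limma adjusted p = 2.38e-06, exact permutation p = 0.00216).

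*Xpnpep2* encodes a membrane-anchored aminopeptidase P, which removes an N-terminal amino acid next to proline, as in bradykinin. *Xpnpep2* (ENSMUSG00000037005) had 1.49 to 10.0 normalized counts in CTL tumors (median 8.16) and 22.2 to 52.4 in knockdown tumors (median 39.0). The groups did not overlap, at levels that were low in both. The log2 fold change was 2.33 (SE 0.38, limma adjusted p = 0.000237, exact permutation p = 0.00216), from 44 reads in CTL tumors and 233 in knockdown tumors. For all 5 genes that were called the groups did not overlap, which held for 21.5% of all genes. The CTL means of *Mep1a*, *Mep1b* and *Xpnpep2* were below the lowest mean of any listed gene (9.28 normalized counts), so these 3 would not have been listed had both groups been at the CTL level.

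**Figure D1:**
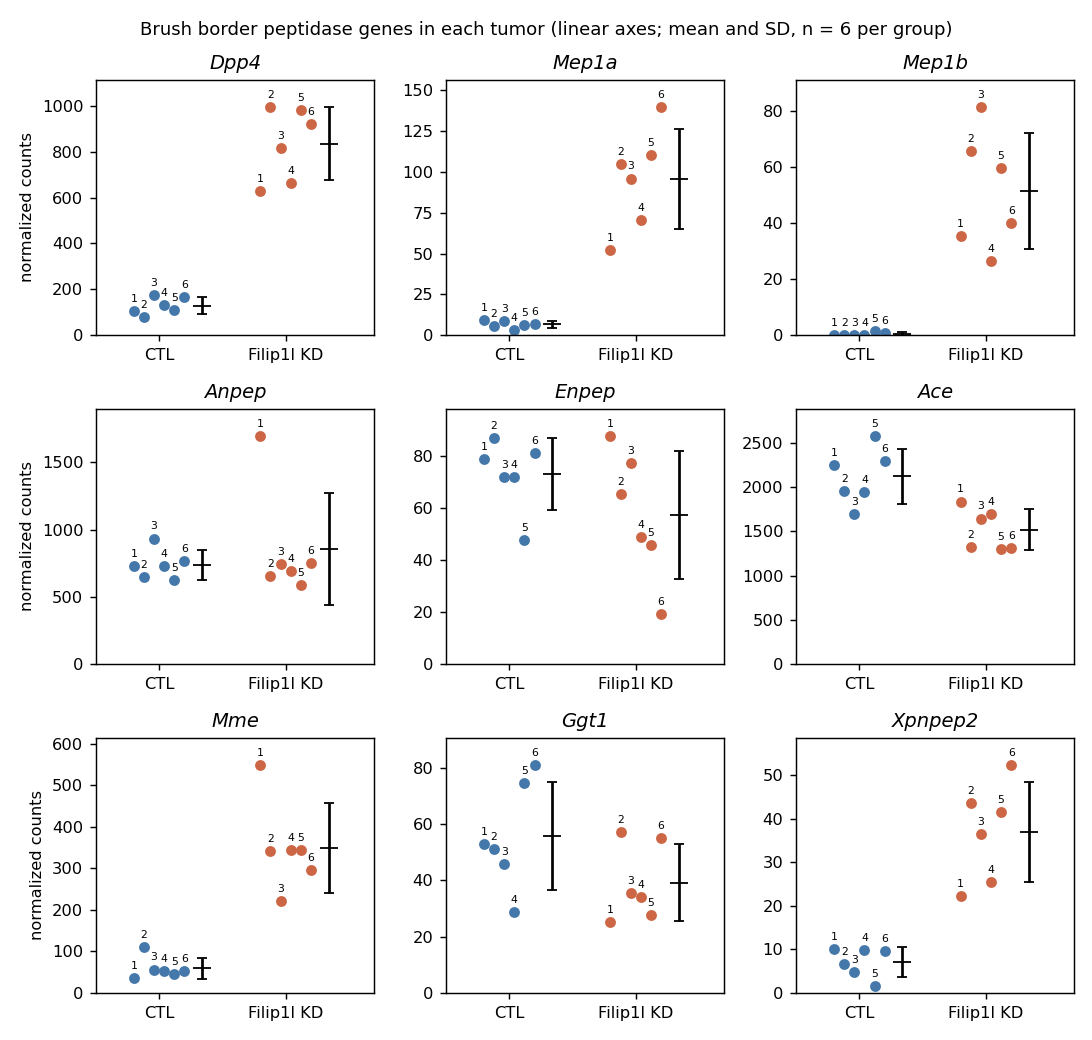
Normalized counts (linear y axes from 0) of the 9 peptidase genes in each CTL (blue) and *Filip1l*-knockdown (orange) tumor, numbered by replicate, with the mean and SD of each group (n = 6) in black. The 2 groups are fully separated for *Dpp4*, *Mep1a*, *Mep1b*, *Mme* and *Xpnpep2* and overlap for *Anpep*, *Enpep*, *Ace* and *Ggt1*, and knockdown replicate 1 is apart from the other knockdown tumors for *Anpep* and *Mme*.

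The other 4 genes did not pass the threshold. *Anpep* (ENSMUSG00000039062), which encodes aminopeptidase N or CD13, an enzyme also found on myeloid cells and fibroblasts, had 624 to 934 normalized counts in CTL tumors (median 728) and 590 to 1697 in knockdown tumors (median 717). Only knockdown replicate 1, at 1697, was above the CTL range, and the other 5 had 590 to 754. The log2 fold change of *Anpep* was 0.12 (SE 0.21, limma adjusted p = 0.678, exact permutation p = 0.797), and it turned to -0.10 (adjusted p = 0.477) without knockdown replicate 1.

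*Enpep* encodes aminopeptidase A, which converts angiotensin II to angiotensin III. *Enpep* (ENSMUSG00000028024) had 47.8 to 87.1 normalized counts in CTL tumors (median 75.5) and 19.2 to 87.7 in knockdown tumors (median 57.3). The lowest value was that of knockdown replicate 6, and the ranges overlapped. The log2 fold change was -0.46 (SE 0.31, limma adjusted p = 0.249, exact permutation p = 0.201), and it was -0.19 without knockdown replicate 6.

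*Ggt1* encodes gamma-glutamyltransferase 1, which starts the breakdown of extracellular glutathione. *Ggt1* (ENSMUSG00000006345) had 28.9 to 81.1 normalized counts in CTL tumors (median 52.1) and 25.2 to 57.3 in knockdown tumors (median 34.9). The ranges overlapped over most of their length, with a log2 fold change of -0.49 (SE 0.28, limma adjusted p = 0.174, exact permutation p = 0.123).

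*Ace* encodes angiotensin-converting enzyme, which forms angiotensin II and is abundant on endothelium as well as in epithelium. *Ace* (ENSMUSG00000020681) had 1699 to 2577 normalized counts in CTL tumors (median 2100) and 1305 to 1836 in knockdown tumors (median 1484). It was below the lowest CTL tumor in 5 of 6 knockdown tumors. The log2 fold change was -0.48 (SE 0.11, limma adjusted p = 0.00349, exact permutation p = 0.00433), a decrease that passed the test on p but was below the size needed for a call. With *Ace*, 6 of the 9 genes had an adjusted p under 0.05, as did 41.9% of all genes. Exons of *Ace* overlap *Gm11651*, on the opposite strand and not listed in the table, over 295 bases (5.58%).

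**Figure D2:**
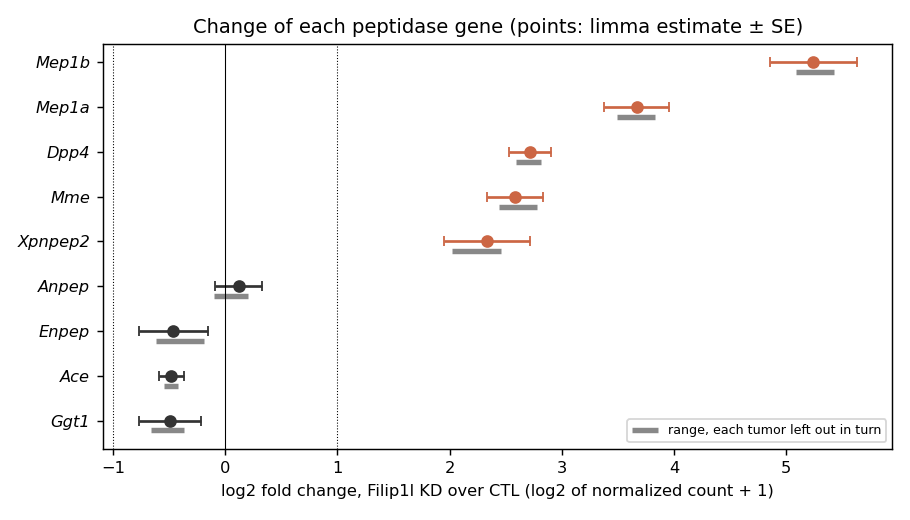
Log2 fold change of each peptidase gene in knockdown over CTL tumors (x axis, log2 of the normalized count plus 1), with points for the limma estimate and bars for its SE (orange where called, black where not), and grey bars for the range when each of the 12 tumors was left out. Dotted lines mark a log2 fold change of -1 and 1: 5 genes are beyond 1, from *Xpnpep2* at 2.33 to *Mep1b* at 5.24, and 4 are between the lines, where the grey bar of *Anpep* crosses 0.

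Levels of different genes were compared as normalized counts per kb of exon (union of the exons in GENCODE). In CTL tumors *Ace* was highest at 401 ± 59.3 per kb (SD, n = 6), followed by *Anpep* at 178 ± 26.7. *Dpp4* at 20.3 ± 5.85, *Ggt1* at 16.3 ± 5.64 and *Enpep* at 15.5 ± 2.91 came next, and neighbours among these 3 overlapped. *Mme* had 5.11 ± 2.25 per kb and was separated from its neighbours. *Mep1a* at 1.90 ± 0.65, *Xpnpep2* at 1.46 ± 0.71 and *Mep1b* at 0.15 ± 0.25 were lowest, and each overlapped the next.

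In knockdown tumors *Ace* was at 287 ± 44.4, *Anpep* at 207 ± 101 and *Dpp4* at 132 ± 25.2 per kb (SD, n = 6), and neighbours among these 3 overlapped. *Dpp4* thus overlapped *Anpep* in knockdown tumors, and it did not in CTL tumors. After a gap, *Mme* followed at 30.3 ± 9.44, *Mep1a* at 27.7 ± 8.94, *Mep1b* at 19.6 ± 7.95, *Enpep* at 12.2 ± 5.24, *Ggt1* at 11.5 ± 4.03 and *Xpnpep2* at 7.58 ± 2.35, and each of these overlapped the next. With the longest transcript as the length, *Ggt1* moved ahead of *Dpp4* in CTL tumors and ahead of *Enpep* in knockdown tumors, and *Mme* (up to 13.7 per kb) was no longer separated from *Enpep* (from 11.4 per kb) in CTL tumors.

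As a share of the summed level of the 9 genes per kb, *Dpp4* went from 3.18% ± 0.91 in CTL tumors to 18.5% ± 5.08 in knockdown tumors (SD, n = 6 each). *Ace* took 62.4% ± 5.74 and 39.3% ± 4.64, while *Anpep* took 28.1% ± 5.01 and 27.2% ± 7.72. The meprins together with *Mme* and *Xpnpep2* took smaller shares, the largest being *Mme* at 4.08% ± 0.82 in knockdown tumors. The summed level itself was 640 ± 49.5 per kb in CTL tumors and 735 ± 115 in knockdown tumors, and the ranges of 585 to 696 and 656 to 964 overlapped.

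**Figure D3:**
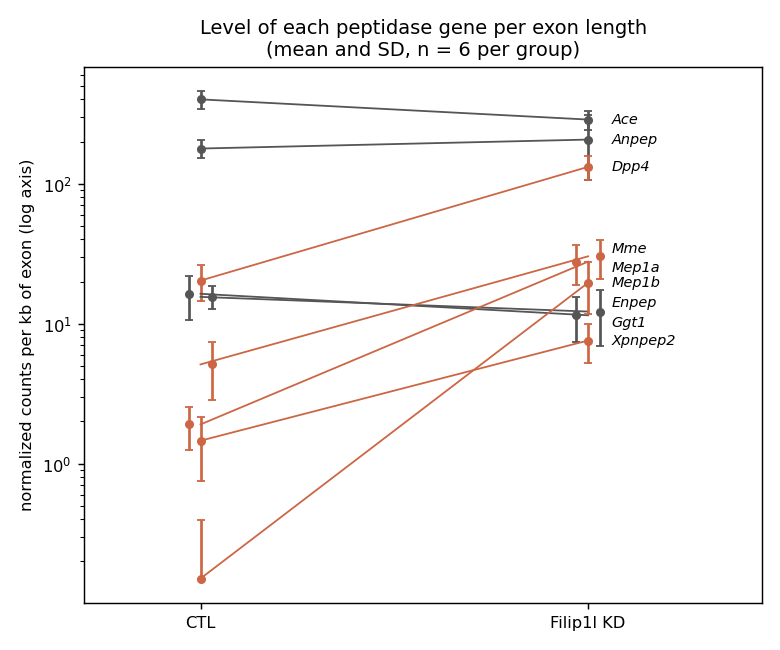
Mean level of each peptidase gene in CTL and knockdown tumors in normalized counts per kb of exon (log y axis), with the SD (n = 6; the lower bar is left out where the SD exceeds the mean) and orange for genes that were called. *Ace* and *Anpep* are the highest in both groups, *Dpp4* moves from 20.3 to 132 per kb, and *Mep1b* moves from 0.15 to 19.6.

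The tumors within a group varied gene by gene. Among the knockdown tumors, replicate 1 had the lowest *Dpp4*, *Mep1a*, *Xpnpep2* and *Ggt1* and the highest *Anpep*, *Mme*, *Enpep* and *Ace*. The same tumor had the lowest summed level of 8 epithelial markers among knockdown tumors (191510 normalized counts, where the median of the 6 was 318941). It also had the highest summed levels of fibroblast markers (251716, median 117234), macrophage markers (24735, median 16291) and dendritic cell markers (3142, median 1440). The same held for markers of endothelium, pericytes, neutrophils, T cells and B cells. It did not hold for skeletal muscle, adipocyte or epidermis markers. The part of these cells in the *Anpep* and *Mme* values was not tested. Without this tumor the log2 fold change of *Mme* was 2.44 and that of *Dpp4* was 2.79, both still called.

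After the group means were removed, the correlation over the 12 tumors was 0.48 between *Dpp4* and *Mep1a*, 0.35 between *Dpp4* and *Mep1b*, and -0.42 between *Dpp4* and *Mme*, values given as a description. All genes of a tumor share its library and its mix of cells. By the same measure over 12882 genes that averaged 50 or more normalized counts, the genes most like *Dpp4* were *Bace2* (r = 0.94, rho = 0.97), *Entpd2* (r = 0.92) and *Xbp1* (r = 0.92). Those most like *Mep1a* were *Ankrd37* (r = 0.93), *Ogdh* (r = 0.89) and *Ppp1r3b* (r = 0.88). For *Mep1b* they were *Hba-a1* (r = 0.91, an alpha-globin gene with a near-identical copy, so its count is uncertain), *Creb3l3* (r = 0.89) and *Mttp* (r = 0.88), and for *Mme* they were *Tph1* (r = 0.89), *E2f7* (r = 0.88) and *Mcm4* (r = 0.87). *Mep1a* and *Mep1b* reached a mean of 50 only in knockdown tumors, and *Mep1b* had 2 reads in all CTL tumors. The partners named here and below are the highest of 12882 correlations over 12 tumors. High values can arise from that choice alone.

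*Anpep* varied most closely with *Myo1g* (r = 0.98, rho = 0.95), *Psap* (r = 0.97, rho = 0.78) and *P2ry14* (r = 0.96, rho = 0.92), where knockdown replicate 1 is the farthest point for *Anpep*. *Myo1g* encodes a myosin of blood cells. *Enpep* was most like *Nxn* (r = 0.92), *Fam171a1* (r = 0.90) and *Pla2g15* (r = 0.89), *Ace* most like *Ttc3* (r = 0.96), *Nbeal1* (r = 0.94) and *Inpp4a* (r = 0.94), and *Ggt1* most like *Fam120a* (r = 0.90), *Myl7* (r = 0.89) and *Prkce* (r = 0.89). *Xpnpep2* was too low for this comparison.

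**Figure D4:**
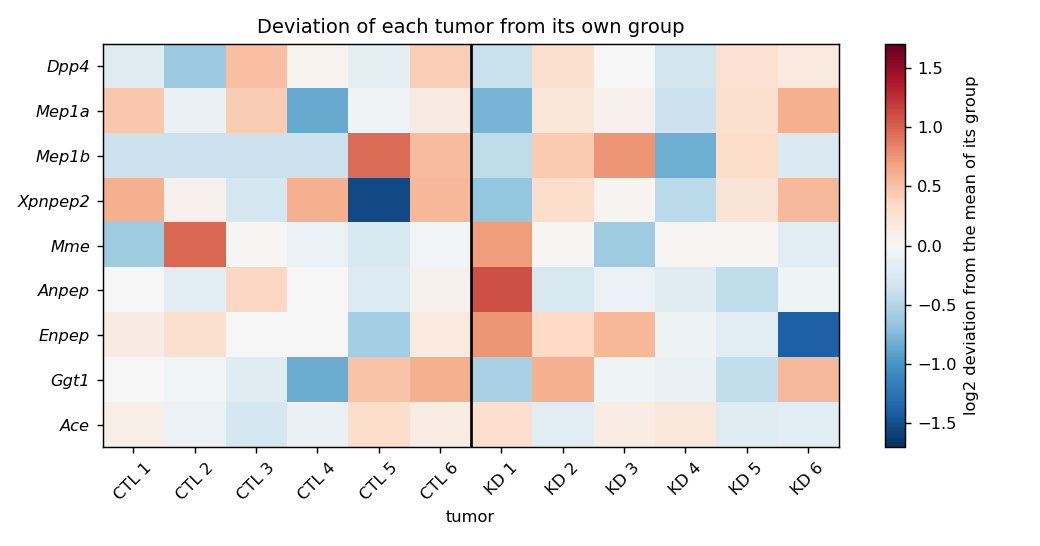
Deviation of each tumor from the mean of its own group for the 9 peptidase genes (rows), in log2 of the normalized count plus 1 (colour, red above and blue below the mean), for CTL and *Filip1l*-knockdown (KD) replicates 1 to 6 (columns). Knockdown replicate 1 is above its group for *Mme*, *Anpep*, *Enpep* and *Ace* and below it for *Dpp4*, *Mep1a*, *Mep1b*, *Xpnpep2* and *Ggt1*.

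Markers of absorptive enterocytes, the cells that carry a brush border in intestine, were examined next. Of 12 enterocyte markers, 11 were listed, and 9 were called higher in knockdown tumors and 0 lower by limma, edgeR or DESeq2 (0 lower at an unadjusted p under 0.05), with a median log2 fold change of 2.87. *Sis*, sucrase-isomaltase, was at 7.37 ± 3.60 normalized counts in CTL tumors and 348 ± 135 in knockdown tumors (SD, n = 6 each), or 5.39 on the log2 scale (limma adjusted p = 2.87e-08). *Alpi*, intestinal alkaline phosphatase, had a log2 fold change of 5.32 (limma adjusted p = 5.36e-07). The apolipoprotein genes *Apoa4* and *Apoa1* had log2 fold changes of 5.13 and 4.02 (limma adjusted p = 0.000322 and 0.000667), with a CTL tumor, replicate 5, far above the other CTL tumors for both. Lactase, *Lct*, is a defining marker that was not listed in the table. The CTL means of *Sis*, *Alpi* and *Fabp2* (7.37, 5.92 and 3.55 normalized counts) were below the lowest mean of any listed gene, 9.28. These 3 markers were thus listed only through their knockdown values. The count of 9 and the median of 2.87 are therefore no fair measure against all genes, of which 6.2% were called higher.

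Among other hydrolases of the brush border, 7 of 13 were listed, of which 3 were called higher and 1 lower. Those higher were *Sis*, *Alpi* and *Mgam*, maltase-glucoamylase, which averaged 50.3 ± 16.8 normalized counts in CTL tumors and 1069 ± 182 in knockdown tumors (log2 fold change 4.43, limma adjusted p = 8.57e-09). *Enpp3*, an ectonucleotidase, was lower at 239 ± 67.2 and 51.6 ± 27.2 (log2 fold change -2.27, limma adjusted p = 1.05e-05). *Alpl*, *Naaladl1* and *Nt5e* were not called, with log2 fold changes of -0.62, -0.97 and 0.41. *Naaladl1* lies on chromosome 19, where the median gene was shifted by -0.35. *Sis* and *Alpi* were listed only through their knockdown values.

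Peptide and amino acid transporters take up what the peptidases release. Of 14 genes, 11 were listed, and 3 were called higher and 0 lower. *Slc7a9* and *Slc3a1*, the subunits of the apical cystine and basic amino acid transporter, had log2 fold changes of 5.03 and 3.20 (limma adjusted p = 1.63e-06 and 0.000114). *Slc7a9* had 0 to 4.48 normalized counts in CTL tumors and 45.4 to 109.5 in knockdown tumors. *Slc6a20a*, a proline transporter, had 17.7 ± 6.04 and 259 ± 61.4 normalized counts (log2 fold change 3.82, limma adjusted p = 3.25e-08). The peptide transporter *Slc15a1* was not listed. The CTL means of *Slc7a9* and *Slc3a1*, 2.04 and 6.01, were below the lowest mean of any listed gene (9.28). These 2 genes were thus listed only through their knockdown values.

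The closest relatives of the 9 genes by peptidase family gave 20 listed of 28, with 1 called higher, 1 lower and 18 not called, and a median log2 fold change of 0.01. The share called was thus near that of all genes, 10.2%. *Ggt6*, a relative of *Ggt1*, averaged 18.8 ± 4.11 normalized counts in CTL tumors and 117 ± 34.3 in knockdown tumors (log2 fold change 2.55, limma adjusted p = 1.64e-06), while *Ggt1* did not pass the test. *Tll1*, an astacin like the meprins, was lower at 416 ± 113 and 94.0 ± 22.7 (log2 fold change -2.12, limma adjusted p = 1.81e-06). *Tll1* lies on chromosome 8, where the median gene was shifted by -0.20. *Fap*, the closest relative of *Dpp4* and a fibroblast enzyme, had a log2 fold change of -0.21 and was not called.

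Of other membrane peptidases, 9 of 12 were listed, with 1 higher and 1 lower. *Cpm*, carboxypeptidase M, had a log2 fold change of 1.52 (limma adjusted p = 0.00126) with overlapping ranges. *Cpe*, a carboxypeptidase of secretory granules, fell from 7756 ± 750.04 to 2126 ± 554 normalized counts (SD, n = 6 each; log2 fold change -1.90, limma adjusted p = 3.82e-07). *Cpe* lies near *Tll1* on chromosome 8 (chr8:64592542-64693054 and chr8:64014931-64206271). Both were still called with chromosome medians removed. Whether the 2 decreases are separate was not tested. Cytosolic peptidases, which finish the breakdown of peptides inside the cell, were listed for 14 of 15 genes, and 0 were called by limma, edgeR or DESeq2, although 7 had an unadjusted p under 0.05. Their log2 fold changes ranged from -0.36 for *Dpp3* to 0.53 for *Rnpep*, and the median was 0.10. *Dpp3* lies on chromosome 19, where the median gene was shifted by -0.35.

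In the angiotensin system, 11 of 15 genes were listed, 4 of them also among the 9 peptidases, and 4 were called higher and 0 lower. Besides *Mme* these were *Agt*, the angiotensin precursor (93.4 ± 24.1 and 271 ± 71.9 normalized counts, log2 fold change 1.53, limma adjusted p = 2.43e-05), *Mcpt4*, a mast cell chymase (log2 fold change 2.61, limma adjusted p = 0.000221), and the receptor *Agtr1a*. *Agt* lies on chromosome 8 and *Mcpt4* on chromosome 14, where the median gene was shifted by -0.20 and 0.38. *Agtr1a* was low, at 7.90 ± 3.02 and 18.2 ± 6.32 normalized counts (log2 fold change 1.13, limma adjusted p = 0.0184), and lost the call without CTL replicate 2 (0.90) or knockdown replicate 6 (0.99). The CTL mean of *Agtr1a* was below the lowest mean of any listed gene (9.28), so it was listed only through its knockdown values. *Ace*, *Enpep* and *Anpep*, which act one after the other on angiotensin peptides, were not called. In the glutathione cycle all 15 genes were listed, and only *Ggt6* was called, with a median log2 fold change of -0.08. Of all genes, 10.2% were called in either direction.

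Among substrates and ligands of Dpp4, 10 of 15 were listed, with 2 called higher and 0 lower. They were the chemokines *Cxcl9* (8278 ± 2657 and 22452 ± 8167 normalized counts, log2 fold change 1.39, limma adjusted p = 0.000459) and *Cxcl12* (log2 fold change 1.25, limma adjusted p = 0.00892), both with overlapping ranges. *Cxcl12* fell below the size for a call, at 0.93, without knockdown replicate 1. The hormone genes *Gcg*, *Gip* and *Pyy* were not listed. Of substrates, ligands and inhibitors of meprins, 13 of 14 were listed and 2 were called higher. *Muc2*, the intestinal gel-forming mucin, had 6.60 ± 5.85 and 44.5 ± 30.8 normalized counts (log2 fold change 2.81, limma adjusted p = 0.00375), and the adhesion molecule *Epcam* had 5448 ± 1227 and 15465 ± 3290 (log2 fold change 1.51, limma adjusted p = 5.79e-06). The CTL mean of *Muc2* was below the lowest mean of any listed gene (9.28), so it was listed only through its knockdown values.

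Of the genes for peptides and receptors that neprilysin or angiotensin-converting enzyme act with, 13 of 16 were listed, with 1 called higher and 2 lower. *Adm*, adrenomedullin, had a log2 fold change of 1.40 (limma adjusted p = 0.00177). *Npr2*, a natriuretic peptide receptor, and *Penk*, the enkephalin precursor, had log2 fold changes of -1.03 and -1.06 (limma adjusted p = 0.00248 and 0.0309). *Npr2* lost its call, at -0.99 to -0.89, without any one of CTL replicates 1 and 3 or knockdown replicates 2 and 5. *Penk* lost its call, with adjusted p of 0.0577 to 0.0703, without any one of CTL replicates 3, 4, 5 and 6 or knockdown replicates 2, 4 and 5.

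Transcription factors that are known to act on brush border genes in intestine and kidney were listed for 13 of 15, and 5 were called higher and 0 lower. *Cdx2*, an intestinal homeobox factor, averaged 259 ± 48.0 normalized counts in CTL tumors and 1155 ± 218 in knockdown tumors (log2 fold change 2.15, limma adjusted p = 1.24e-07). *Hnf4g* had a log2 fold change of 2.09 (limma adjusted p = 2.23e-06), *Gata4* of 1.57 (limma adjusted p = 2.28e-05) and *Elf3* of 1.55 (limma adjusted p = 1.62e-05). *Gata4* lies on chromosome 14, where the median gene was shifted by 0.38. Its log2 fold change was 1.19 to 1.58 over 11 other settings, removal of chromosome medians included, and it was called in all of them. *Hnf4a* was at 8054 and 8890 normalized counts on average and was not called (log2 fold change 0.14, limma adjusted p = 0.152). In the lists where limma called 0 genes lower, edgeR and DESeq2 did so too, although 2 transporters, 1 gene of the angiotensin system, 2 of the glutathione cycle, 1 substrate or ligand of Dpp4, 2 genes of the meprin list and 3 transcription factors were lower at an unadjusted p under 0.05. Over all 11 lists apart from enterocyte markers, 119 genes other than the 9 peptidases were listed, 21 of them called higher and 5 lower. Of all genes, 6.2% were called higher and 3.97% lower. The lists were chosen with earlier results known, and some of their genes were listed only through their knockdown values. These counts are therefore no fair measure against all genes.

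**Figure D5:**
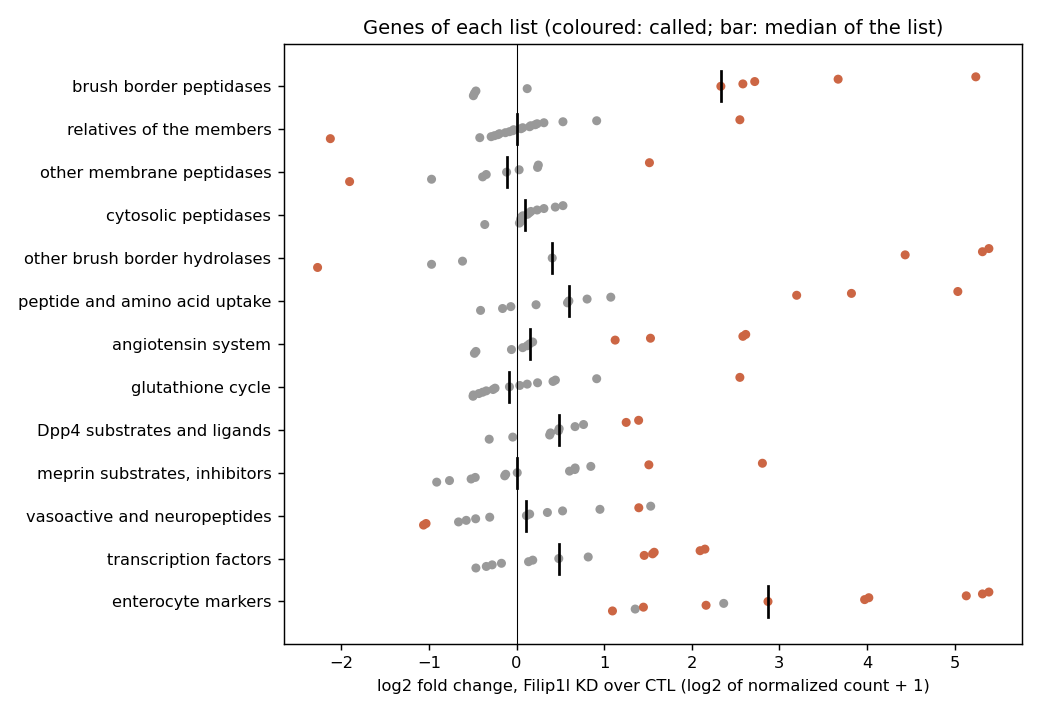
Log2 fold change in knockdown over CTL tumors (x axis, log2 of the normalized count plus 1) of each listed gene in the 9 brush border peptidases and 12 related lists, with orange points for called genes, grey for others, and a black bar at the median of each list. The medians of the peptidases (2.33) and of the enterocyte markers (2.87) are the farthest from 0, and cytosolic peptidases stay between -0.36 and 0.53. The peptidase and enterocyte lists hold genes that were listed only through their knockdown values.

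Most markers of epithelium, but not all, were higher in knockdown tumors, as were the peptidase genes that were called. Of 8 epithelial markers 5 were called higher. *Cdh1*, *Krt18* and *Esrp1* were not called, with log2 fold changes of 0.01, 0.44 and 0.70. The summed level of the 8 markers was 135894 to 176628 normalized counts in CTL tumors and 191510 to 355788 in knockdown tumors. Scaling each tumor to the mean log2 level of these 8 markers moved the median of all genes to -1.13. On that scale, chosen after seeing the data, *Dpp4* (1.58), *Mep1a* (2.53), *Mep1b* (4.10), *Mme* (1.44) and *Xpnpep2* (1.19) were still called higher. *Anpep* (-1.02), *Enpep* (-1.60), *Ace* (-1.62) and *Ggt1* (-1.63) were all called lower on that scale, where 10017 of all genes were called lower. *Enpep*, *Ace* and *Ggt1* were below the shifted median and *Anpep* was slightly above it. Neutrophil markers were called higher for 6 of 8 genes and skeletal muscle markers for 7 of 8, with sums of 1111 to 1906 against 1198 to 3295 and of 2326 to 12328 against 5182 to 88659 normalized counts. Fewer were called for fibroblasts (1 of 8), macrophages (1 of 8), B cells (1 of 2 listed) and adipocytes (2 of 3 listed), and 0 by limma, edgeR or DESeq2 for endothelium (of 10), pericytes (of 8), dendritic cells (of 7) and T cells (of 8). At an unadjusted p under 0.05, these last lists held 8, 3, 0 and 0 genes, all of them higher in knockdown tumors. Of the 10 endothelial markers, 9 had a positive log2 fold change, and the median was 0.47, below the size needed for a call. For epidermis, 1 of the 4 listed markers was called lower. The part of these cells in the peptidase values was not tested.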

How the data were processed

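Per the labels and the methods, RNA of 12 snap-frozen tumors was enriched with oligo(dT), prepared with the NEBNext Ultra II kit and sequenced as 2 × 150 bp paired ends. The authors trimmed reads with Trimmomatic 0.36, aligned them with STAR 2.5.2b, counted unique hits per gene with featureCounts (Subread 1.5.2), and deposited the counts divided by DESeq2 size factors, a normalized signal without length correction. The submitters' processing notes name mm10. Whether counting used strand is not given in the sources used here.

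The 9 genes and all gene lists were chosen with earlier results of these data known. Groups were taken from the labels. These do not say whether tumors of a group came from separate mice or from separately transduced cells, so p-values measure only the spread between tumors. limma 3.58.1 (R 4.3.3, trend, pseudocount 1, minimum mean 5, which removed 0 genes) was fitted over all 15687 genes. All values were whole multiples of a step per tumor (0.865 to 1.49, tolerance 0.02 reads, 100% of values), so whole reads were recovered for edgeR 4.0.16 and DESeq2 1.42.0, which called 1635 and 1652 genes. Also tried were a pseudocount of 0.5 or 8, a minimum mean of 20 or none, scaling to the 75th percentile or the same total, no trend, a replicate block, removal of chromosome medians, and leaving out each tumor. Scaling to epithelial markers was added after seeing the data. On simulated data with 200 changed genes among 15687, limma called 200 of them and 2 unchanged genes. The simulation used the same dispersion for every gene and changes well beyond the threshold, in genes with a mean of at least 20. It therefore cannot speak to genes near the thresholds or at low counts.

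Named genes are the 9 members, *Filip1l*, the called genes of a list (the 4 largest changes at a mean of at least 50 where more than 4 were called in 1 direction) and, for each member with a mean of at least 50 in a group, the 3 genes with the highest correlation. *Fap*, *Hnf4a*, *Dpp3*, *Rnpep*, *Alpl*, *Naaladl1*, *Nt5e*, *Cdh1*, *Krt18* and *Esrp1* were named after their values were seen. A few results for single genes are not reported here. Exons came from GENCODE vM21 on GRCm38 (99.8% of identifiers matched) and promoter windows from RefSeq on GRCm38.p6. Python 3.11.15 and matplotlib 3.10.9 drew the figures.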

Additional observations from a re-analysis of the deposited data

Results flagged for a closer look

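In 72 groups of 6 tumors (36 genes in each group), 9 values stood apart from the others of their group by Dixon's criterion at the 95% level. Chance alone flags about 1 in 20 groups, or 3.6 here. Among knockdown tumors, replicate 1 had 1697 normalized counts of *Anpep* (others 590 to 754), 550 of *Mme* (others 222 to 345), 105.9 of *Enpp3* (others 32.3 to 47.0), 1698 of *Cxcl12* (others 301 to 769) and, at the low end, 237 of *Gata4* (others 460.2 to 493). Among CTL tumors, replicate 2 had 109.8 of *Mme* (others 36.0 to 56.4), replicate 3 had 13636 of *Cxcl9* (others 6821 to 7983), and replicate 5 had 195.7 of *Apoa4* (others 1.00 to 56.4) and 615 of *Apoa1* (others 14.0 to 149.5). The value of *Mme* in knockdown replicate 1 was just past the limit.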

How the results depend on the processing

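*Dpp4*, *Mep1a*, *Mep1b*, *Mme* and *Xpnpep2* were called higher under all 11 alternative settings that used every tumor and all 12 that left out 1. Among the 11, the setting without a minimum mean repeats the main fit, because the main minimum removed 0 genes, so it could not differ. Of the 9 genes, 5 were called in each fit without a tumor, and of other list genes 24 to 28 were. When a tumor was left out the log2 fold change was 2.59 to 2.82 for *Dpp4*, 3.50 to 3.83 for *Mep1a*, 5.09 to 5.43 for *Mep1b*, 2.44 to 2.78 for *Mme*, 2.02 to 2.46 for *Xpnpep2*, -0.10 to 0.21 for *Anpep*, -0.61 to -0.19 for *Enpep*, -0.54 to -0.42 for *Ace* and -0.66 to -0.37 for *Ggt1*. The sign of *Anpep* turned to -0.10 without knockdown replicate 1.

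Tumors that share a replicate number are not known to be paired, and the correlation of their deviations was -0.269 to 0.0990. With replicate number as a block the same number of the 9 genes, 5, was called, and 1554 genes in all instead of 1596. Of 27 other named genes, 23 kept their call under all of these settings. *Agtr1a*, *Npr2*, *Penk* and *Cxcl12* lost it under at least 1, through the size limit or the adjusted p.

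Under the scaling to epithelial markers, added after seeing the data, the median of all genes moved to -1.13, and 9 of the 9 genes were called (5 higher, 4 lower), with 68 other list genes and 10293 genes in all. *Anpep* turned to -1.02, *Enpep* became -1.60, *Ace* -1.62 and *Ggt1* -1.63, while *Agtr1a* turned to -0.015, and 9 other named genes lost their call. The shift follows from the scale itself, since 5 of its 8 markers were called higher. Depth limits *Mep1b* and *Xpnpep2*, which rest on 2 and 44 reads in CTL tumors.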
